A study of Mus musculus with 3 samples.

Results

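The receptors for secretagogues and incretins comprised 7 genes, Cckar, Cckbr, Chrm1, Chrm3, Sctr, Vipr1 and Glp1r, and were measured by 14 of the 55664 probes on each array, out of 21150 named genes. A probe belonged to the set when the RefSeq accession in the scanner table was that of one of these genes. The genes were picked with their levels on these arrays already known, so every value below describes these arrays and none is tested. The study set ADM cells (acinar-to-ductal metaplasia, acinar cells taking on duct features) beside ductal and acinar cells, all cut by laser microdissection from frozen pancreas of 3 wild-type (WT) mice 48 h after caerulein pancreatitis. No untreated pancreas was analysed here, so all the groups share the caerulein injury. Each cell type had 1 array, and the labels do not say if RNA of several mice was pooled on it.

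Secretagogue receptors are G protein-coupled receptors through which hormones and nerves drive the exocrine pancreas. Cckar, Cckbr, Chrm1 and Chrm3 couple mainly to Gq and calcium release, which triggers enzyme secretion from acinar cells. Sctr, Vipr1 and Glp1r couple mainly to Gs and cyclic AMP, which drives fluid and bicarbonate secretion in ducts (Sctr, Vipr1) and augments insulin secretion in islet beta cells (Glp1r). Caerulein is a cholecystokinin analogue that acts on Cckar, and its overdose is the standard trigger of experimental pancreatitis.

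The promoters of Glp1r and Vipr1 are shown because these genes had their highest level on different arrays, Glp1r on the acinar array and Vipr1 on the duct array. Each line holds the 250 bases before and the 50 bases from the gene start on the coding strand, as given by RefSeq on GRCm38.p6. Capitals mark the PTF1 E-box (CACCTG, or CAGGTG on the other strand) and the SP1 GC box (GGGCGG, or CCGCCC on the other strand).
Glp1r, chr17:30901617-30901916, plus strand: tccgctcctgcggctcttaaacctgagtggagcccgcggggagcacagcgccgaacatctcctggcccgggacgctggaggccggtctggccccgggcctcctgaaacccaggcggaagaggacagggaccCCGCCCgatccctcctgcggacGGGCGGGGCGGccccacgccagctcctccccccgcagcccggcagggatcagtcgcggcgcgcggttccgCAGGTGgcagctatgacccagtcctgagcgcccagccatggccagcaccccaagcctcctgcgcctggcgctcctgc
Vipr1, chr9:121642466-121642765, plus strand: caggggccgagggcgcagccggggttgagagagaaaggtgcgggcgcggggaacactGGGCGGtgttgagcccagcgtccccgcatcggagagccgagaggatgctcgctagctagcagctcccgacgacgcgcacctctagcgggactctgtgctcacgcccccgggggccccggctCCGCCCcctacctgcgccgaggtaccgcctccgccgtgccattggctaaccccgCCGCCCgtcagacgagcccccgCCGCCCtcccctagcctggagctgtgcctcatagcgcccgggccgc

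Counting the first base of the gene as 0, the Glp1r promoter held 1 E-box, on the minus strand with its first base at −27. It also held 3 GC boxes, 1 on the minus strand at −119 and 2 on the plus strand at −97 and −92, the last pair sharing a base. The Vipr1 promoter held no E-box and 4 GC boxes, at −193 on the plus strand and at −72, −18 and 4 on the minus strand. Among all 32851 promoters of this window, 20.2% held the E-box and 35.7% the GC box on either strand. Both promoters were 73.7% G or C, with 29 CpG in Glp1r and 35 in Vipr1, against a median of 52.7% and 7 CpG over all promoters. Neither held the NR5A2 core AAGGTCA (4.72% of all promoters), the GATA motif AGATAA (11.2%), the TATA box TATAAA (13.6%) or the cAMP response element TGACGTCA (1.79%). The promoter of Cckbr, a gene that no array measured above background, also held 1 E-box. A match describes letters in this window only.

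Levels are log2 of the processed signal minus the 75th percentile of the array, so 0 is that percentile. Signals are in scanner intensity units, and ± is the scanner software's error for the spot, which covers the spot and not the mice (n = 1 array per cell type). The 75th-percentile signal was 72.2 units on the ADM array, 95.7 on duct and 35.2 on acinar, with 49.7%, 50.03% and 40.7% of probes well above background and 0 spots saturated. Where 1 of a pair was not well above background, its place was taken by the lowest signal that was (8.14 units on ADM, 9.88 on duct, 8.54 on acinar) or its own if higher, and the difference is written as "at least". The labels were set against marker lists. All 15 acinar markers were well above background in ADM cells and in acinar cells, and 14 in duct cells, with a summed linear level of 8674 in ADM, 1512 in duct and 30484 in acinar cells. Of 12 duct markers, 10 were well above background in ADM, 11 in duct and 9 in acinar cells, with sums of 51.6, 140.4 and 19.3. Markers of islet cells (sums 1216, 717 and 802), macrophages (316, 75.5 and 80.3) and fibroblasts (337, 327 and 85.6) were also present on the arrays of ADM, duct and acinar cells. In such bulk samples, fewer cells of a type and less RNA per cell cannot be told apart.

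**Figure D1:**
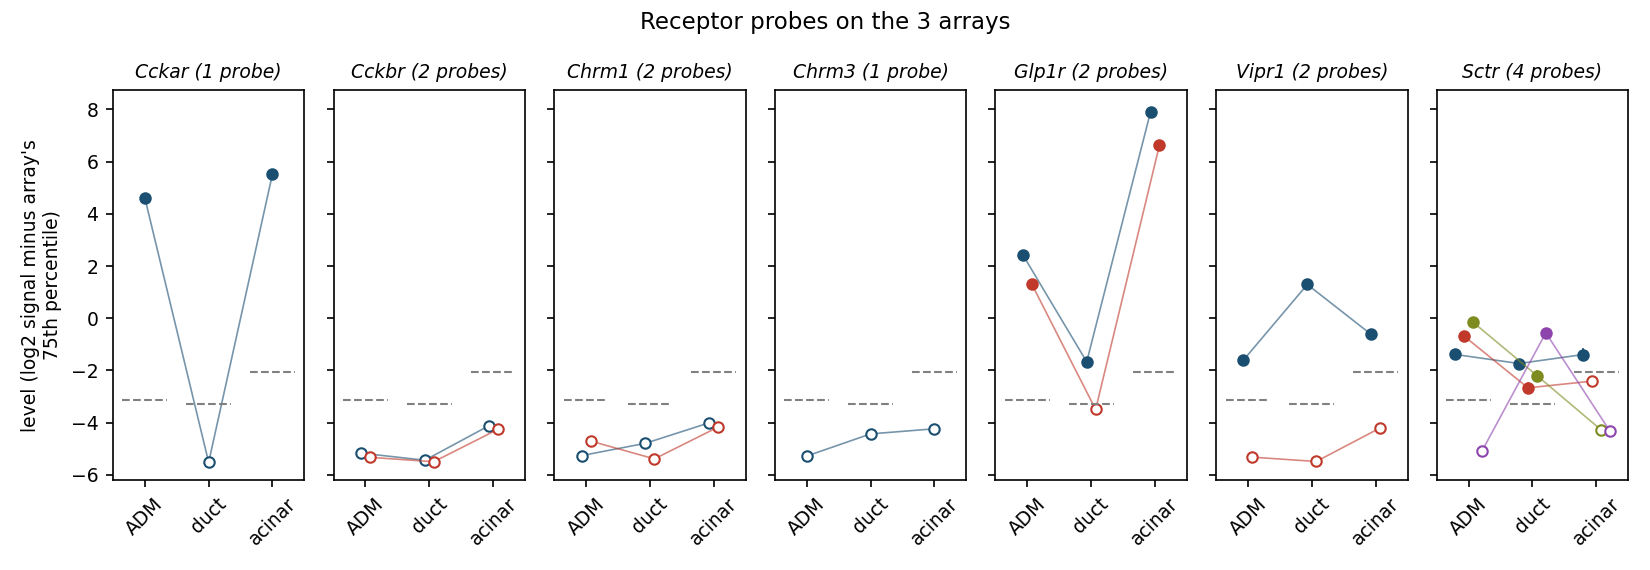
Level (log2 signal minus the array's 75th percentile, vertical axis) of each receptor probe on the ADM, duct and acinar arrays, 1 panel per gene and 1 colour per probe. Filled points were well above background, open points were not, bars are the scanner software's spot error (mostly smaller than the points; none is drawn for open points), and dashes mark the lowest level well above background on each array. Cckar is high on 2 arrays, both Glp1r probes are intermediate in ADM, lowest in duct and highest in acinar cells, 1 of 2 Vipr1 probes peaks on duct, and the 4 Sctr probes do not follow 1 pattern.

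Cckar, the receptor for cholecystokinin and for caerulein itself, was bright in ADM and acinar cells and not well above background in duct cells. Its 1 probe gave a signal of 1765 ± 176 in ADM, 2.09 ± 2.09 in duct and 1626 ± 163 in acinar cells. As levels, these were 4.61 in ADM, −5.52 in duct and 5.53 in acinar cells. The duct array therefore stood apart, and the other two arrays lay within 2-fold of each other.

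ADM cells differed from acinar cells in Cckar by −0.92 log2 units (1.89-fold lower, spot error 0.20). Without scaling the raw signals were 1.09-fold higher in ADM, so this direction rests on the weaker acinar array being scaled. Under the alternatives run it ranged from −0.92 to −0.43 and never came to 2-fold. Duct cells were at least 447-fold lower than acinar cells in Cckar, and ADM cells exceeded duct cells by at least 237-fold. With normexp background correction both bounds shrank, to 44.6-fold and 33.1-fold. The acinar markers beside it had median differences of −2.43 in ADM against acinar cells, −5.80 in duct against acinar cells and 3.61 in ADM against duct cells. Their part in the Cckar values was not tested.

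The remaining Gq-coupled receptors were not measured above background in any of these cells. Cckbr, which binds gastrin as well as cholecystokinin, had signals between 1.80 and 2.20 units over its 2 probes and all 3 arrays. The muscarinic acetylcholine receptor Chrm1 lay between 1.88 and 3.46 units over its 2 probes. Chrm3, the muscarinic receptor best known for acinar enzyme secretion, had 1.86 units in ADM, 4.44 in duct and 1.87 in acinar cells from 1 probe. These signals are below the lowest signal that counted as well above background on each array, so no difference is given. A transcript below that signal, or one that these probes do not bind, would look the same. Of the other muscarinic receptors, Chrm4 had 19.3 units in ADM and 16.5 in duct, both well above background, against 8.30 in acinar cells, which was not, and Chrm2 and Chrm5 were not well above background on any array.

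Glp1r, the receptor for the incretin glucagon-like peptide 1, had its highest level in acinar cells, a lower one in ADM cells and the lowest in duct cells, and both of its probes gave this order. The first probe gave a signal of 389 ± 38.9 in ADM, 30.1 ± 3.60 in duct and 8428 ± 843 in acinar cells, that is levels of 2.43, −1.67 and 7.90. The second gave 179 ± 18.0 in ADM, 8.49 ± 2.47 in duct (not well above background) and 3495 ± 350 in acinar cells, or levels of 1.31, −3.49 and 6.63. The duct array was low and the acinar array high on both probes, with ADM between them.

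ADM cells were 44.5-fold lower than acinar cells on the first Glp1r probe (−5.47 log2 units, spot error 0.20) and 40.1-fold lower on the second (−5.33). Unscaled, the first probe's signals still differed by 21.7-fold, and every alternative run lay between −5.48 and −4.82. Duct cells were 761-fold lower than acinar cells on the first probe (−9.57, spot error 0.22) and at least 961-fold lower on the second. ADM cells were 17.1-fold higher than duct cells on the first probe (4.10, spot error 0.22) and at least 23.9-fold higher on the second. Normexp correction moved the first probe's folds to 28.3 for ADM against acinar, 173 for duct against acinar and 6.11 for ADM against duct, with the same directions. Among all genes compared, with bounds taken at their bound, 19 of 13632 were further down than Glp1r in ADM against acinar cells, and 2 of 13826 in duct against acinar cells. In ADM against duct cells, 222 of 14475 were further up.

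Since Glp1r is best known from islets, the islet markers were set beside it. Of 17 islet markers, 16 were well above background in ADM, 16 in duct and 12 in acinar cells, so none of the arrays was free of islet transcripts. The insulin genes stayed within 2-fold. Ins1 had levels of 8.61 in ADM, 7.70 in duct and 7.80 in acinar cells, and Ins2 had 9.25, 8.36 and 8.80 in the same cells. In ADM against acinar cells 5 of 16 compared islet markers were at least 2-fold higher, 0 were lower and 11 lay within 2-fold (median 0.63). In duct against acinar cells 5 were higher and 1 lower (median 0.05). In ADM against duct cells 5 of 16 islet markers were higher, 3 lower and 8 within 2-fold (median 0.15), so other islet markers moved more than the insulin genes. Of the acinar markers, 14 of 15 were at least 2-fold lower in ADM than in acinar cells (median −2.43), with Cela1 the furthest down, by 17.7-fold. The acinar transcription factor Ptf1a, a subunit of the PTF1 complex, had levels of 2.67 in ADM, −1.40 in duct and 2.70 in acinar cells. Ptf1a was the 1 acinar marker within 2-fold between ADM and acinar cells. Rbpjl and Bhlha15, transcription factors on the same list, were 3.41-fold and 5.97-fold lower in ADM than in acinar cells. The part of either marker list in the Glp1r values was not tested.

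**Figure D2:**
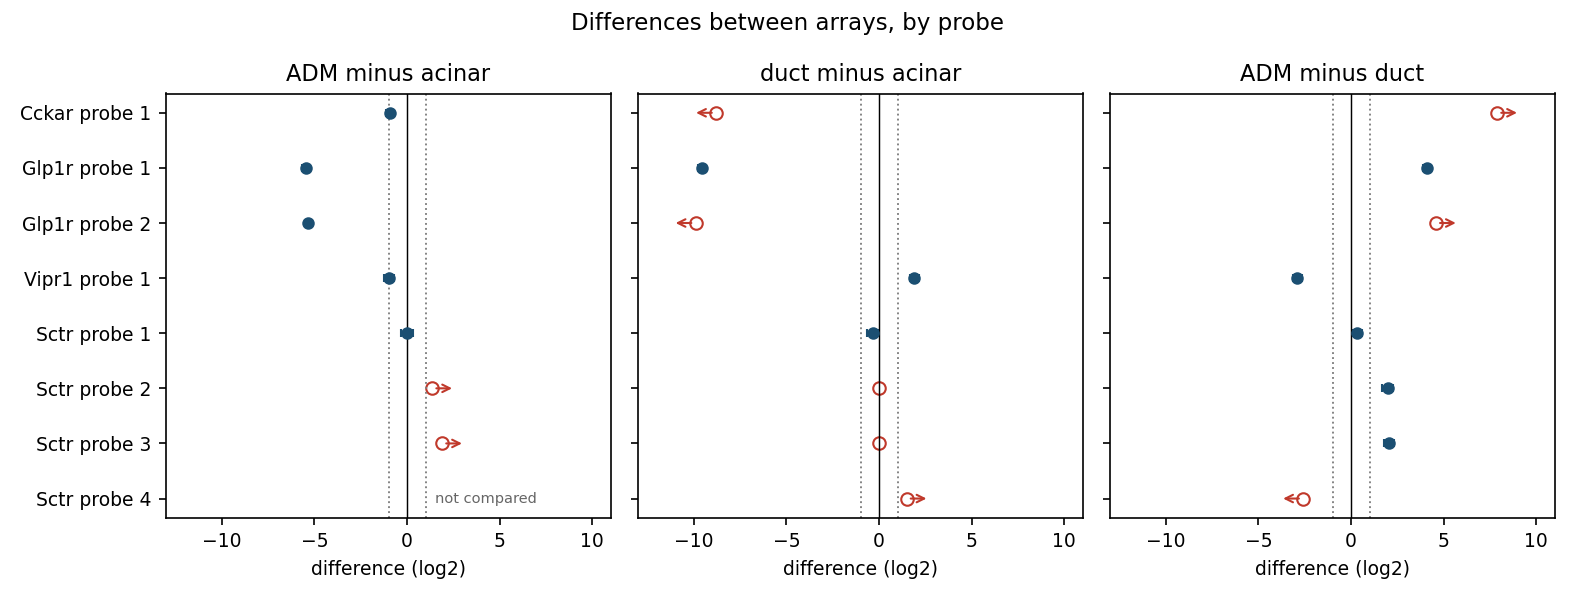
Difference between 2 arrays (log2 units, horizontal axis) for each receptor probe that was well above background on at least 1 array. Filled points are measured differences with the scanner software's spot error, open points with arrows are lower bounds on the size, open points at 0 are bounds that allow either direction, and dotted lines mark 2-fold. Both Glp1r probes lie near −5.47 in ADM minus acinar, while the Sctr probes lie on both sides of 0 in ADM minus duct.

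Vipr1, a receptor for vasoactive intestinal peptide and PACAP, had its highest signal in duct cells, although on 1 of its 2 probes only. That probe gave 23.8 ± 2.91 units in ADM, 234.7 ± 23.6 in duct and 22.9 ± 2.89 in acinar cells. Its levels were −1.60 in ADM, 1.29 in duct and −0.62 in acinar cells. The second probe was not well above background anywhere, with 1.80 units in ADM, 2.13 in duct and 1.91 in acinar cells. The pattern of this gene thus rests on a single probe.

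On that probe duct cells were 3.77-fold higher than acinar cells in Vipr1 (1.92 log2 units, spot error 0.23), and ADM cells were 7.44-fold lower than duct cells (−2.90, spot error 0.23). Normexp correction gave 2.22-fold and 2.95-fold in the same directions. Averaging both probes gave 1.24-fold and 2.58-fold. ADM and acinar cells differed by −0.98 (1.97-fold lower in ADM, spot error 0.25), and unscaled by 0.06 the other way. The alternatives for that pair ranged from −1.05 to −0.41, and only the mean of both probes passed 2-fold. Beside Vipr1, all 11 compared duct markers were at least 2-fold higher in duct than in acinar cells (median 2.73), and 8 of 11 were lower in ADM than in duct cells (median −2.43). Smooth muscle markers summed to 11.03 in ADM, 30.8 in duct and 11.6 in acinar cells. By gene, 3 of 7 compared were at least 2-fold higher in duct than in acinar cells and 4 lay within 2-fold (median 0.56). The part of these markers in the Vipr1 values was not tested.

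Sctr, the secretin receptor that drives ductal bicarbonate secretion, was dim, and its 4 probes did not give 1 answer. The first probe had 27.6 ± 3.57 units in ADM, 28.8 ± 3.67 in duct and 13.4 ± 2.36 in acinar cells. The second had 44.9 ± 4.78 in ADM, 15.1 ± 2.48 in duct and 6.63 ± 1.86 in acinar cells, the last not well above background. The third had 65.0 ± 6.75 in ADM, 20.9 ± 2.95 in duct and 1.83 ± 1.84 in acinar cells, the last again not well above background. The fourth was well above background in duct cells only, at 65.0 ± 6.82 units, against 2.13 ± 1.76 in ADM and 1.78 ± 1.78 in acinar cells.

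For ADM against duct cells, the first Sctr probe differed by 0.35 (spot error 0.26), the second and the third were 3.95-fold and 4.12-fold higher in ADM, and the fourth was at least 6.02-fold lower in ADM. The direction of Sctr between ADM and duct cells is therefore not settled by these probes. Against acinar cells, ADM cells differed by 0.00 on the first probe (levels −1.39 in both) and were at least 2.56-fold and 3.71-fold higher on the second and the third. Duct cells differed from acinar cells by −0.34 on the first probe, which median scaling turned to 0.04, and were at least 2.80-fold higher on the fourth. On the second and the third probe the bound for duct against acinar cells allowed either direction. Every array gave at least 1 Sctr probe well above background, with 3 in ADM, 4 in duct and 1 in acinar cells.

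Disagreement between probes was common on these arrays, which sets how far a single probe can be read. This was counted only for genes whose first and second probes were both well above background on both arrays of a pair. Their 2 differences lay a median of 0.78 log2 units apart for ADM against acinar cells (1906 genes), 0.98 for duct against acinar (1833) and 0.93 for ADM against duct (2295). The gap exceeded 1 log2 unit in 42.5%, 49.3% and 47.7% of these genes. The Glp1r probes (−5.47 and −5.33 for ADM against acinar cells) lay closer than that median, and the first 2 Sctr probes (0.35 and 1.98 for ADM against duct cells) further apart.

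Taking the probe with the highest mean for each gene, 4 of the 7 receptors could be compared. In ADM against acinar cells 0 were at least 2-fold higher and 1 was lower (Glp1r), beside 21.8% higher and 22% lower over all 13632 genes. In duct against acinar cells 1 was higher (Vipr1) and 2 were lower (Glp1r and Cckar), beside 27.4% and 24.6% of 13826 genes. In ADM against duct cells 2 were higher (Cckar and Glp1r) and 1 was lower (Vipr1), beside 21.6% and 24.8% of 14475 genes. The genes were chosen with these contrasts known, so nothing is read from the shares.

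Counted by probe, 7 of 14 could be compared in ADM against acinar cells, with 2 higher and 2 lower, beside 17.3% and 22.7% of 29587 probes. In duct against acinar cells 8 were compared, with 2 higher and 3 lower, beside 20.4% and 27.8% of 30173. In ADM against duct cells 8 were compared, with 5 higher and 2 lower, beside 21.7% and 20.4% of 31863. Probes of 1 gene share its transcript and are not independent.

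**Figure D3:**
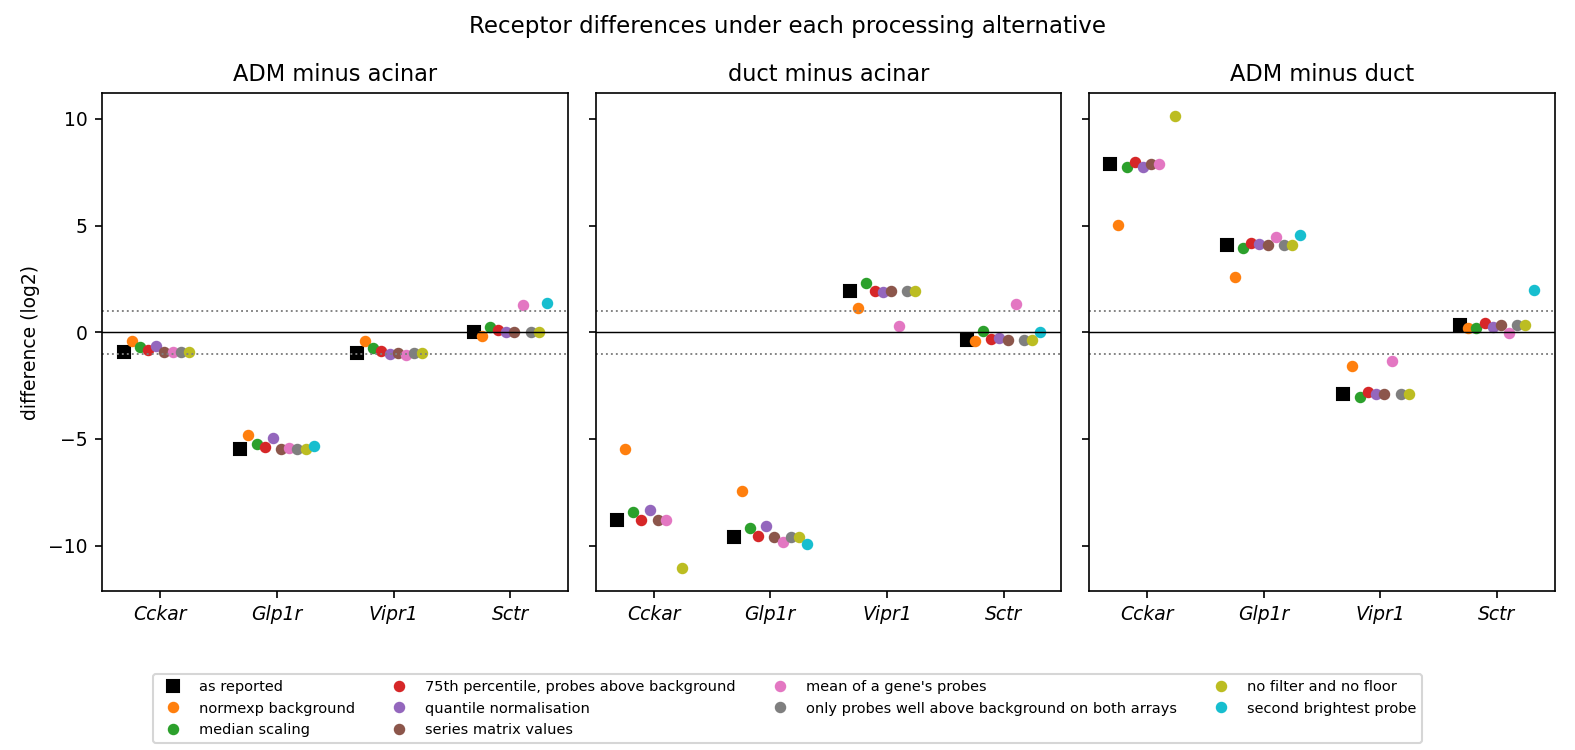
Difference (log2 units, vertical axis) of the 4 comparable receptors as reported (black squares) and under each of 9 processing alternatives (coloured points), 1 panel per comparison, with dotted lines at 2-fold. Glp1r and Cckar keep their place on the far side of 2-fold in the panels with duct cells, normexp correction gives the smallest size for them, and Sctr moves with the choice of probe.

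The genes of which the pattern over the 3 arrays was nearest to each receptor were found by the Euclidean distance between levels centred on each gene's mean, among genes well above background on the same arrays. With only 3 arrays, many genes share any pattern by this measure. Nearest to Cckar, among 541 candidates, were the zymogen granule protein Cuzd1 (distance 1.20 log2 units), Cabp2 (1.22) and the phospholipase Pla1a (1.41). Cckar and these candidates were not well above background in duct cells, and their signals there entered the distances as measured. Cuzd1 differed by −2.43 in ADM against acinar cells, where Cckar differed by −0.92, and both exceeded duct cells by at least 237-fold in ADM cells. Nearest to Glp1r, among 9538 candidates, were the pancreatic elastases Cela1 (1.02) and Cela2a (1.22) and the amylase Amy2a4 (1.81). Cela1 was 17.7-fold lower in ADM and 346-fold lower in duct cells than in acinar cells, smaller differences than those of Glp1r. Elastase and amylase probes can bind close relatives. Nearest to Vipr1 were Cobl (0.04), Zfp276 (0.05) and Grpel2 (0.05), and nearest to the first Sctr probe Msh6 (0.01), Skp1 (0.02) and Cd63 (0.03).

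Other receptors through which hormones, transmitters and proteases act on the pancreas were compared as a list of 28 measured genes. In ADM against acinar cells 5 of 12 compared were higher and 4 lower (median 0.05), in duct against acinar cells 3 and 4 of 15 (median 0.00), and in ADM against duct cells 4 and 5 of 15 (median 0.29). The medians over all genes were 0.00, 0.00 and −0.05. Vipr2, the second receptor for vasoactive intestinal peptide, had signals of 38.2 in ADM, 2.07 in duct (not well above background) and 406 in acinar cells. It was 21.8-fold lower in ADM than in acinar cells, with −1.91 log2 units on its second probe, and at least 112-fold lower in duct than in acinar cells, with −2.65 on its second probe. Normexp correction gave −2.75 and −3.65 for the first probe in these comparisons. Its highest level was thus in acinar cells, whereas that of Vipr1 was in duct cells.

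P2ry2 and F2rl1 had their highest levels in duct cells. P2ry2, a receptor for extracellular ATP and UTP, was at least 26.5-fold higher in duct than in acinar cells, and at least 57.0-fold lower in ADM than in duct cells. F2rl1, the trypsin-activated receptor PAR2, was 2.44-fold higher in ADM and 6.64-fold higher in duct than in acinar cells. The first of these folds fell under 2 with normexp correction. Among somatostatin receptors, Sstr4 was 4.26-fold lower in ADM and 16.7-fold lower in duct than in acinar cells, the first falling under 2-fold with normexp. The bombesin receptor Grpr was at least 2.95-fold lower in ADM and 3.23-fold lower in duct than in acinar cells, and neither kept 2-fold with normexp.

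The ligands of these receptors were mostly not well above background. Of 12 ligand genes, 4 were well above background in ADM, 5 in duct and 2 in acinar cells. Gcg, which encodes glucagon and glucagon-like peptide 1, had levels of 5.98 in ADM, 5.48 in duct and 4.74 in acinar cells, and ADM cells exceeded acinar cells by 2.37-fold. Gcg is also one of the islet markers. Gast, which encodes gastrin, had levels of 0.67 in ADM, −0.36 in duct and 1.11 in acinar cells. Cck was well above background in duct cells only, at 11.1 units, against 1.71 in ADM and 1.79 in acinar cells. Sct, which encodes secretin, had 10.7 units in ADM and 33.2 in duct, against 1.88 in acinar cells, which was not well above background. Vip, Gip, Grp, Nts, Tac1 and Adcyap1 were not well above background on any array.

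Downstream of Gq, the list of 20 genes held 1 gene higher and 6 lower of 18 compared in ADM against acinar cells (median −0.24), 3 and 6 in duct against acinar cells (median 0.12), and 3 and 7 in ADM against duct cells (median −0.40). Of the G protein subunits, Gnaq, Gna11 and Gna14 stayed within 2-fold in each comparison, and Gna15 was 2.08-fold lower in duct than in acinar cells and 1.76-fold lower in ADM than in acinar cells. Gnaq had levels of −0.35 in ADM, 0.10 in duct and −0.10 in acinar cells, and Gna11 had −0.04, 0.33 and −0.06. Plcb3, a phospholipase C that makes inositol trisphosphate, was 11.8-fold higher in duct than in acinar cells, and 11.1-fold lower in ADM than in duct cells. Itpr3, an inositol trisphosphate receptor that releases calcium, was 8.69-fold higher in duct than in acinar cells, and 6.57-fold lower in ADM than in duct cells. Prkca, a protein kinase C, was 6.70-fold higher in duct than in acinar cells, with at least 1.56 log2 units on its second probe. Lower in ADM than in acinar cells were Ppp3cb, a calcineurin subunit (4.66-fold), and Prkcd (3.73-fold, with −1.61 log2 units on its second probe). The folds given for Plcb3, Itpr3, Prkca, Ppp3cb and Prkcd stayed above 2 under normexp and the scaling alternatives.

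Downstream of Gs, 3 genes were higher and 5 lower of 18 compared in ADM against acinar cells (median 0.07), 6 and 3 of 17 in duct against acinar cells (median 0.50), and 4 and 5 of 19 in ADM against duct cells (median −0.10). Gnas, the Gs subunit, had levels of 5.57 in ADM, 6.06 in duct and 5.97 in acinar cells. Adcy7, an adenylyl cyclase, was 5.07-fold higher in ADM and 6.43-fold higher in duct than in acinar cells. Prkaca, a catalytic subunit of protein kinase A, was higher in ADM than in acinar cells, by 3.42-fold. Rapgef3, the cyclic AMP sensor EPAC1, was at least 12.5-fold higher in duct than in acinar cells, and 11.1-fold lower in ADM than in duct cells. Pde3b, which degrades cyclic AMP, was 4.04-fold lower in ADM than in acinar cells, and 6.41-fold lower in ADM than in duct cells. Pde4d was 13.4-fold lower in ADM than in acinar cells on its first probe but differed by 0.23 log2 units on its second, and Crem, at least 10.2-fold higher in duct than in acinar cells, by 0.00 on its second.

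**Figure D4:**
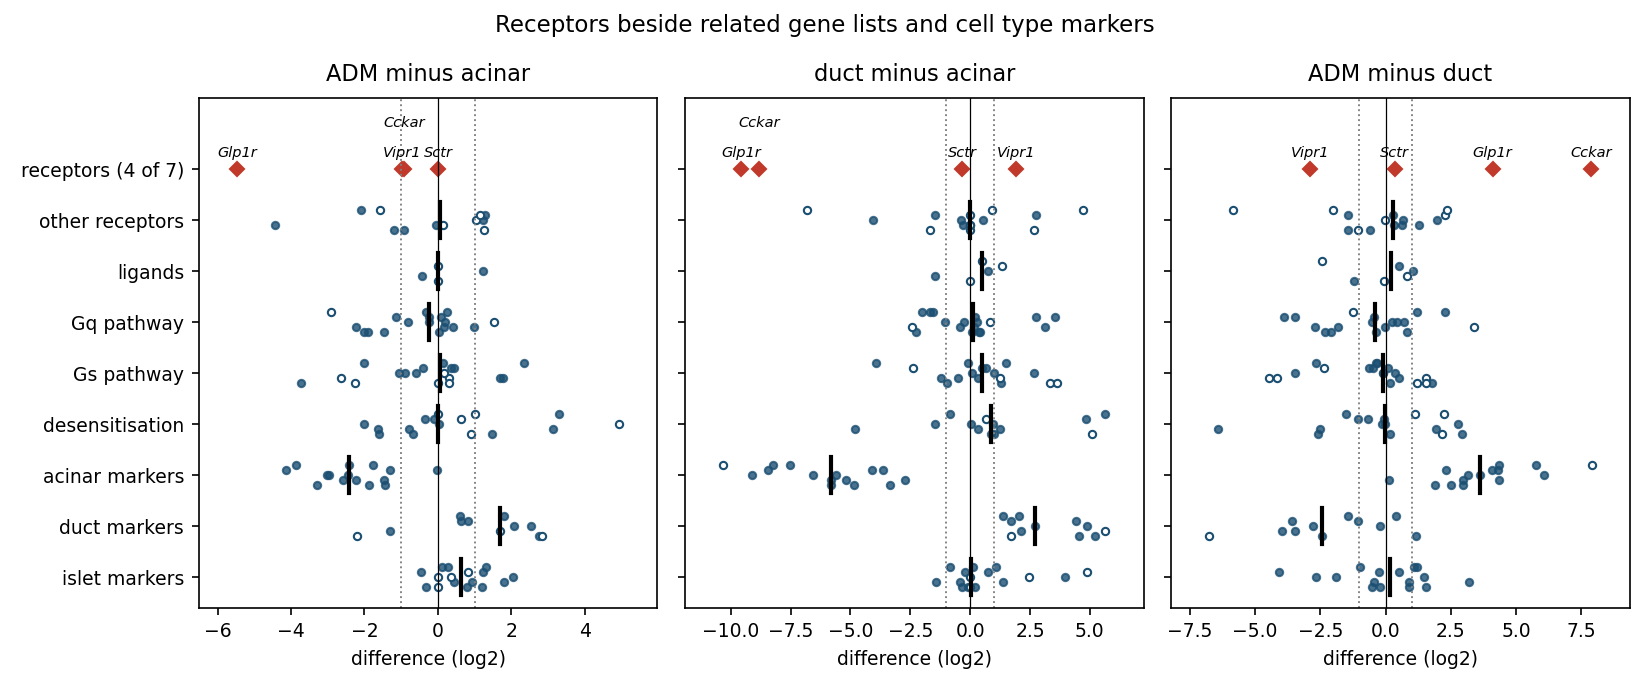
Difference (log2 units, horizontal axis) of the 4 comparable receptors (red diamonds, named) and of the genes of 8 related lists (blue points, 1 per gene, open where the value is a bound), 1 panel per comparison. Thick bars are list medians and dotted lines mark 2-fold. The medians of the receptor, ligand and pathway lists lie within 1 log2 unit of 0 in every panel, while the acinar markers lie at −2.43, −5.80 and 3.61.

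Receptor desensitisation and accessory proteins were counted last. Of 16 genes, 5 were higher and 3 lower in ADM than in acinar cells (median 0.01), and 6 were higher and 5 lower in ADM than in duct cells (median −0.03), while in duct against acinar cells 4 of 13 compared were higher and 2 lower (median 0.87). Rgs2, which shortens Gq signalling, had signals of 538 in ADM and 790.0 in duct, against 7.71 in acinar cells (not well above background). It was at least 30.7-fold higher in ADM and 34.0-fold higher in duct than in acinar cells. Its second probe was well above background neither in ADM nor in acinar cells, and gave at least 2.10 log2 units in duct against acinar cells. In ADM against duct cells that probe gave a bound of −3.21, where the first differed by −0.15. The Rgs2 value in ADM cells therefore rests on 1 probe that the other does not share. Ramp3 is an accessory protein that modifies some G protein-coupled receptors. It was 9.91-fold higher in ADM and 28.3-fold higher in duct than in acinar cells, and its second probe gave 3.60 and 4.87 log2 units. Rgs16 was 49.5-fold higher in duct than in acinar cells, and 84.8-fold lower in ADM than in duct cells.

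The arrestins, which uncouple activated receptors, differed in opposite directions in both comparisons of ADM cells, and both were higher in duct than in acinar cells, Arrb1 by 1.98-fold and Arrb2 by 2.35-fold. Arrb2 was higher in ADM than in acinar cells by 8.86-fold, and Arrb1 was 3.04-fold lower in ADM than in acinar cells and 6.01-fold lower in ADM than in duct cells. Ramp1 was 4.05-fold lower in ADM and 28.0-fold lower in duct than in acinar cells on its first probe. Its second probe was at least 1.65 log2 units higher in duct than in acinar cells, so the direction of Ramp1 there is not settled. Macrophage markers were 9 of 10 higher in ADM than in acinar cells (median 2.76), and 2 of 10 higher and 4 lower in duct than in acinar cells (median 0.33). Fibroblast and stellate cell markers were 9 of 10 higher in ADM (median 2.501) and 8 of 10 higher in duct (median 1.66) than in acinar cells. Their part in the values of the signalling genes was not tested.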

How the data were processed

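Spot intensity in the deposited scanner tables is linear and was written by Agilent Feature Extraction 11.5.1.1 per the submitters' processing notes, and per the file headers the processed signal is background-subtracted with no scaling between arrays. Per the labels' protocols, 1.181 ng of RNA was amplified and 2 µg of cDNA labelled with Cy3. The deposited series matrix holds log2 values of 32939 probes, and for the 32905 matched probes log2 of the processed signal was higher by a fixed amount on each array (6.17, 6.58 and 5.13, within 0.001). Its columns were thus scaled per array, with no centring of genes and no change of sign, and had medians of −0.56, −0.63 and −0.57 for ADM, duct and acinar cells.

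From 62976 spots, 3671 controls and the outlier spots (117 on ADM, 110 on duct, 115 on acinar) were left out and repeated spots averaged. Probes were named by RefSeq accession without version through a table on GRCm38.p6, used for names only (28020 probes with 1 symbol, 0 with several, 27644 with none). The probe with the highest mean level stood for a gene. A comparison needed that probe well above background on either array of the pair, and 0 replaced a bound that crossed 0. Differences given for a second probe of a list gene can be bounds too. Counts are at 2-fold. With 1 array per group no test exists.

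The members, the 12 lists (180 genes, 179 of them on the array) and the 9 alternatives were chosen with earlier results of these data known. Normexp (limma 3.58.1, offset 50) used the median spot and local background signals. Its offset is added to every spot before the log, which pulls the folds of dim probes towards no difference by construction. From each pathway list the rule for naming took up to 4 genes a direction and comparison, and up to 3 from each marker list, ranked by difference, and for each receptor the 3 nearest patterns. The text gives part of these, and the list genes given by signal or level alone, with Ptf1a, Bhlha15, Ins1, Ins2, Gna14 and Gna15, were added after their values were seen. Protein sequences were not used here.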

Additional observations from a re-analysis of the deposited data

How the results depend on the processing

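No paired analysis was possible because each group has 1 array, and for the same reason no array could be left out. No difference of Glp1r changed direction over 9 alternatives, none of Vipr1 over 8, and none of Cckar over 8 in ADM against acinar cells and 7 in the comparisons with duct cells. Cckar has no second probe, and that of Vipr1 was not well above background. Left unscaled, which was not among these alternatives, ADM minus acinar turned to 0.12 for Cckar and 0.06 for Vipr1. Sctr, close to 0 as reported, differed by −0.18 in ADM against acinar cells with normexp, by 0.04 and 1.31 in duct against acinar cells with median scaling and averaged probes, and by −0.04 in ADM against duct cells with averaged probes. In ADM against acinar cells, the number of receptors 2-fold or more higher was 1 in place of 0 with the second brightest probe and with averaged probes (Sctr in both), and the number lower was 2 in place of 1 with averaged probes and 4 with no filter and no floor. In duct against acinar cells, the second brightest probe gave 0 higher in place of 1 and 1 lower in place of 2, and requiring both arrays well above background also gave 1 lower, while no filter and no floor gave 3. In ADM against duct cells, requiring both arrays gave 1 higher in place of 2, and the second brightest probe gave 0 lower in place of 1. The second probe compares fewer receptors by construction, as does the requirement for both arrays in the comparisons with duct cells. Over all genes, normexp gave 1681 higher and 927 lower in place of 2966 and 2999 for ADM against acinar cells. For duct against acinar cells it gave 2845 and 1494 in place of 3791 and 3398. For ADM against duct cells it gave 1472 and 2147 in place of 3121 and 3594. The normexp offset shrinks folds of dim probes by construction, and its share in these lower counts was not tested. Higher genes made up 64.5%, 65.6% and 40.7% of the normexp counts, against 49.7%, 52.7% and 46.5% as reported. Median scaling shifted the 3 comparisons by 0.23, 0.39 and −0.16 log2 units and gave shares of 58.9%, 64.7% and 40.7%. With no filter and no floor, which adds probes near background, the counts were 3974 and 7969, 4723 and 8829, and 4369 and 4423. Requiring both arrays gave 1747 and 2323, 2353 and 2546, and 2071 and 2659. The second probe, which could be compared for 3189 to 3481 genes, gave 730 and 785, 788 and 950, and 1014 and 843. Signal over background limits Cckbr, Chrm1 and Chrm3, which no array measured, the dim Sctr probes and every bound against duct cells.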
